A study of Mus musculus with 6 samples.

Results

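The plasma cell secretory and endoplasmic reticulum (ER) stress genes are 35 named genes, taken as every probe annotated to their symbols on Illumina mouse BeadChips, a total of 59 probes out of 45281. They were divided by role into 9 plasma cell identity genes, 15 ER chaperones and folding enzymes, 6 genes of ER-associated degradation and 5 sensors and transcription factors of the unfolded protein response (UPR). Of the 35, 29 were detected on enough arrays to be tested, among 9297 tested genes in all. B cells had been taken from the spleen without culture, from 3 mice of the B6.Sle2 strain (Sle2), a C57Bl/6 congenic that carries the lupus susceptibility locus Sle2 of NZM2410 chromosome 4, and from 3 wild-type C57Bl/6 mice (B6), with 1 array per mouse. The labels give no treatment, age, sex or sorting markers for either strain, and none of the 35 genes lies on chromosome 4.

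When a B cell becomes a plasma cell, the repressor Blimp-1 (Prdm1) shuts down the mature B cell programme, and Xbp1 enlarges the ER so that antibody can be folded and secreted in bulk. The UPR adjusts folding capacity to load through 3 ER membrane sensors: Ire1 (Ern1), which splices Xbp1 mRNA, Perk (Eif2ak3), which leads to translation of Atf4, and Atf6, which is cleaved to a transcription factor. Resting splenic B cells also transcribe many of these genes, so a bulk measurement mixes their own level with that of any plasma cells present. In bulk RNA, fewer cells of a type and less RNA per cell cannot be told apart.

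Median raw intensities ranged from 53.6 to 56.7 on the Sle2 arrays and from 50.4 to 52.1 on the B6 arrays, and 17417 to 17923 probes were detected per array. The B cell label was checked against 10 markers, of which 8 were tested, with a median strain difference of 0.10 on the log2 scale. Cd22, an inhibitory B cell co-receptor, was detected on all 6 arrays. Xist, the X-inactivation RNA, had log2 values of 4.36, 4.30 and 10.93 in Sle2 mice, against 4.33, 10.13 and 5.89 in B6 mice. Y-linked Eif2s3y was at 8.33, 8.39 and 5.36 in Sle2 mice and at 8.44, 4.65 and 8.67 in B6 mice. B6 mouse 3 had Xist above the detection limit beside high Eif2s3y, Sle2 mouse 3 had Eif2s3y above it beside high Xist, and the arrays within each strain differed in these sex-linked transcripts.

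No member passed the test. Of the 29 tested, 0 had an adjusted p under 0.05 in the limma fit, where 1.04% of all tested genes were. At an unadjusted p under 0.05, 7 members were higher and 0 lower in Sle2, against 10.5% higher and 6.45% lower among all tested genes. The 7 were Creld2, Pdia3, Hsp90b1, Dnajb9, Edem2, Derl3 and Atf4. Leaving out 1 mouse at a time changed that count: it was 1 without Sle2 mouse 1, 2 without B6 mouse 2, 3 without B6 mouse 3, 8 without B6 mouse 1, and 5 without either of the other Sle2 mice. The Sle2 mean was higher for 20 of the 29 members, as it was for 54.2% of all tested genes. All 3 Sle2 values lay above all 3 B6 values for 8 members and below them for 1, where 14.7% and 9.45% of all tested genes did so. The median difference of the 29 members was 0.12 on the log2 scale, against 0.02 for all tested genes. The members' median was 0.0892 without Sle2 mouse 3 and 0.0496 without B6 mouse 3. Differences are Sle2 minus B6 on normalized log2 values throughout, with limma's standard error (SE).

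**Figure D1:**
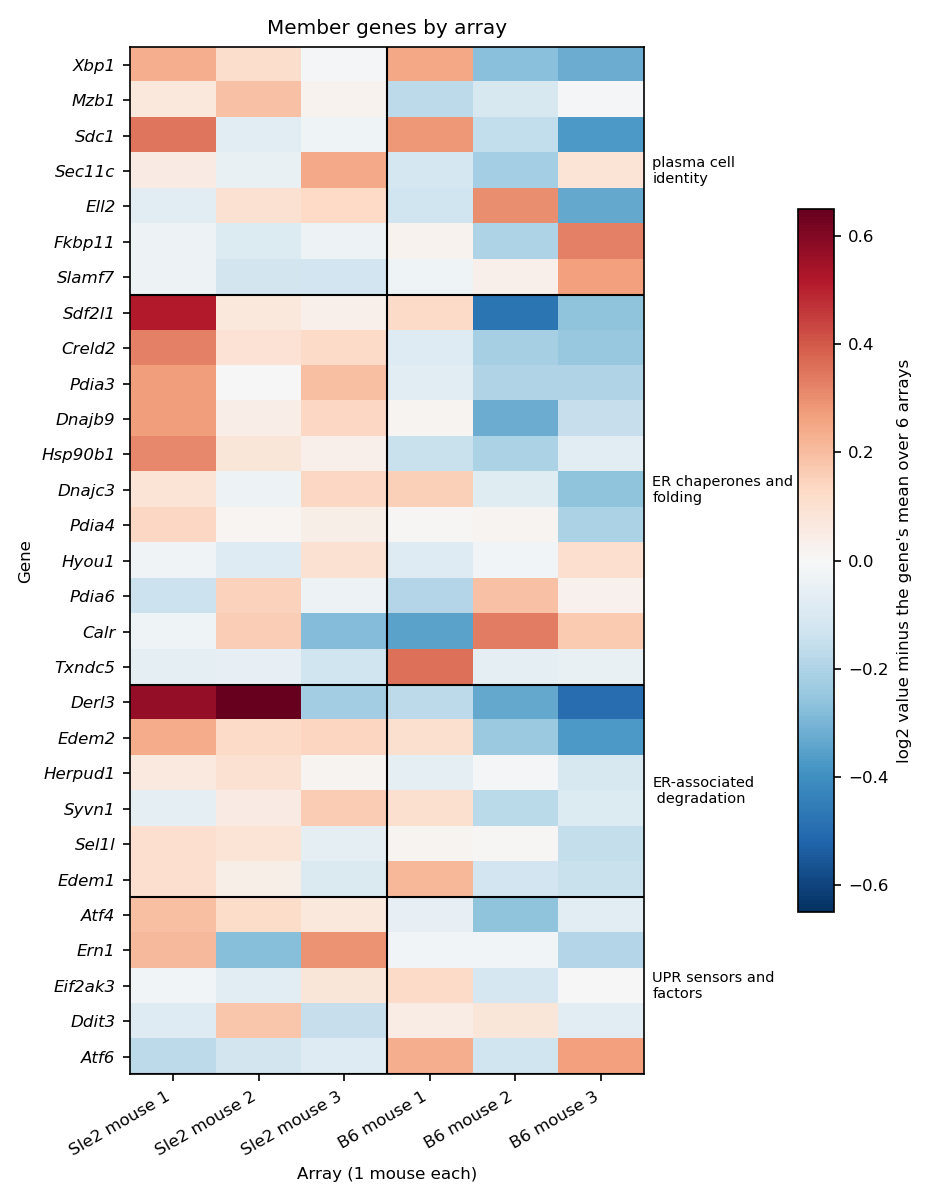
Heat map of the 29 tested members (rows, by role) on the 6 arrays (columns), coloured by log2 value minus the gene's own mean over the 6 arrays. Sdf2l1, Creld2, Pdia3, Dnajb9, Hsp90b1, Derl3 and Edem2 are the rows with the clearest shift between strains, and B6 mouse 1 shares the high values of Xbp1 and Sdc1 with Sle2 mouse 1.

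**Figure D2:**
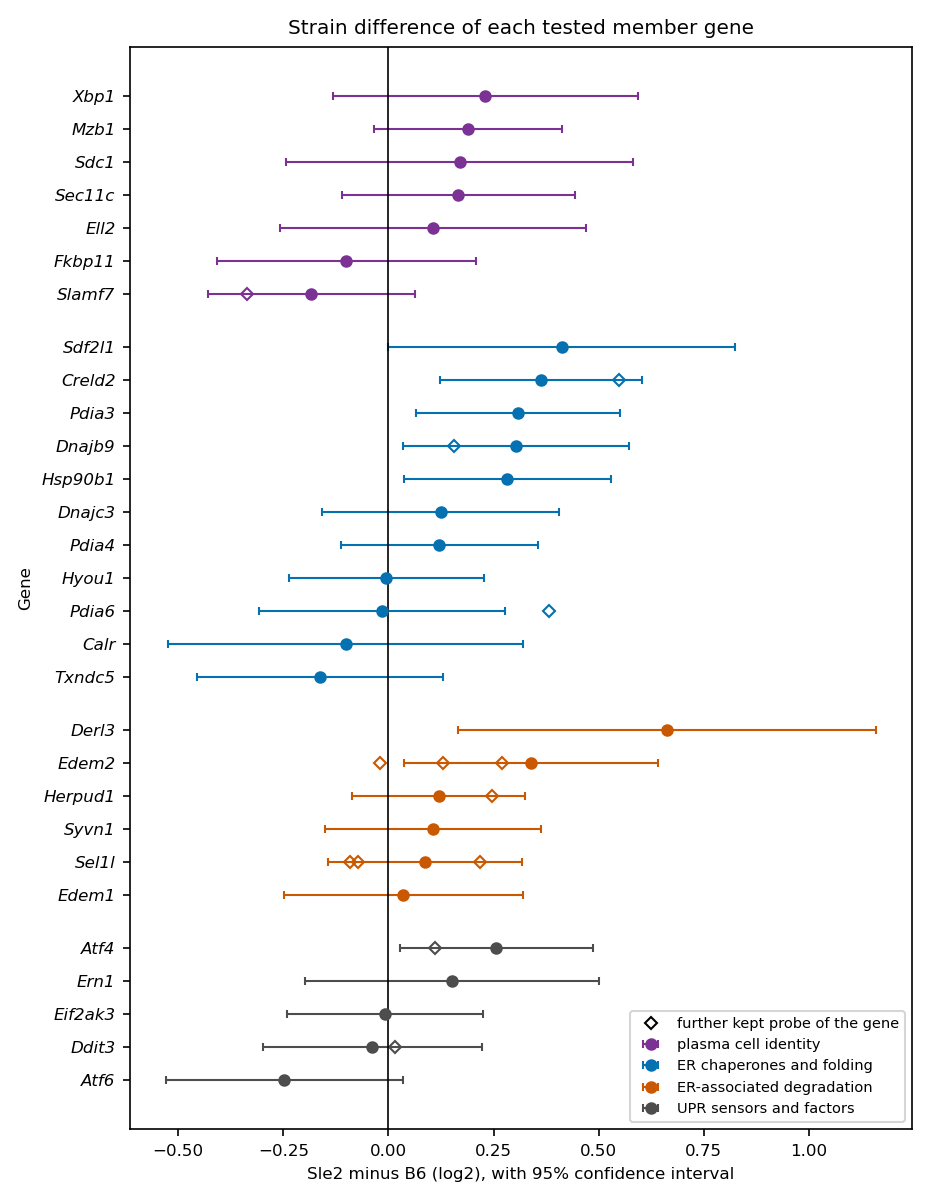
Difference between strains (Sle2 minus B6, log2) for each tested member, as the gene's brightest kept probe (filled circle) with limma's unadjusted 95% confidence interval, and its further kept probes (open diamonds). The intervals of Creld2, Pdia3, Dnajb9, Hsp90b1, Derl3, Edem2 and Atf4 lie above 0, and none of the 29 passes adjustment over all probes.

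Among the plasma cell identity genes, the defining factor and the defining cargo were not measurable. Prdm1 was not well above background on any array by either of its 2 probes, and neither was the 1 probe of Jchain, the joining chain of polymeric antibody. Their signals, 4.40, 4.44 and 4.68 in Sle2 mice against 4.60, 4.40 and 4.33 in B6 mice for the brighter Prdm1 probe, and 4.65, 4.52 and 4.70 against 4.48, 4.67 and 4.56 for Jchain, are at background level. Whether the transcript was scarce or the probe poor cannot be told apart. Of the members that define plasma cells, Sdc1 was the 1 left to read, close to its detection limit. Xbp1 and Mzb1, which B cells also transcribe, were detected on all 6 arrays, as was Tnfrsf17, a plasma cell gene outside the members.

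Xbp1 had values of 11.75, 11.63 and 11.50 in Sle2 mice, against 11.76, 11.24 and 11.19 in B6 mice. The strains overlapped because B6 mouse 1 lay level with the highest Sle2 mouse. Its difference was 0.23 (SE 0.159, 95% interval -0.13 to 0.59, adjusted p = 0.49). It was 0.41 without B6 mouse 1, 0.15 without B6 mouse 2 and 0.12 without B6 mouse 3. Sdc1, the surface proteoglycan CD138 that marks plasma cells, had values of 5.52, 5.10 and 5.14 in Sle2 mice, against 5.45, 5.01 and 4.79 in B6 mice. It was detected in all 3 Sle2 mice and 2 of the 3 B6 mice, with B6 mouse 1 again next to Sle2 mouse 1, and its difference was 0.17 (SE 0.181, interval -0.24 to 0.58, adjusted p = 0.663). It was 0.35 without B6 mouse 1, 0.0371 without Sle2 mouse 1 and 0.0232 without B6 mouse 3.

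Mzb1, an ER co-chaperone of marginal zone B cells and plasma cells, had values of 13.07, 13.19 and 13.03 in Sle2 mice, against 12.83, 12.90 and 12.99 in B6 mice. The strains did not overlap, with a difference of 0.19 (SE 0.0982, interval -0.03 to 0.41, adjusted p = 0.362). Sec11c, a catalytic subunit of the signal peptidase, was at 8.55, 8.45 and 8.74 in Sle2 mice and at 8.38, 8.27 and 8.58 in B6 mice. Those values overlapped, and the difference was 0.17 (SE 0.122, interval -0.11 to 0.44, adjusted p = 0.517).

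Slamf7, a surface receptor of plasma cells and cytotoxic lymphocytes, went the other way. Its values were 7.19, 7.11 and 7.10 in Sle2 mice, against 7.20, 7.26 and 7.49 in B6 mice. It was the 1 member whose Sle2 values all lay below its B6 values, by a narrow gap (7.193 against 7.198). The difference was -0.18 (SE 0.108, interval -0.43 to 0.06, adjusted p = 0.417). Its second probe gave -0.34 (adjusted p = 0.292) and overlapped between strains. Fkbp11, a prolyl isomerase of the secretory pathway, differed by -0.10 (interval -0.41 to 0.21) and Ell2, an elongation factor that favours secretory immunoglobulin mRNA, by 0.11 (interval -0.26 to 0.47). Over the 7 tested identity genes the median was 0.17, with 5 higher and 2 lower means in Sle2. That median was 0.0373 without B6 mouse 3, 0.0853 without Sle2 mouse 3, 0.0870 with series matrix values and 0.0960 without background correction.

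The ER chaperones and folding enzymes, the largest group, held 4 of the 7 members with an unadjusted p under 0.05. These were 4 of its 11 tested genes, against 2 of 6 degradation genes, 1 of 5 UPR sensors and factors and 0 of 7 identity genes. Among all tested genes, 10.5% were higher at that p. Of the 11 tested chaperones and folding enzymes, 7 had a higher Sle2 mean and 4 a lower one. Their median was 0.12, which was 0.0496 without B6 mouse 3 and 0.23 without B6 mouse 1. Creld2, a secreted ER stress protein with disulfide isomerase activity, was the most separated member. It had values of 9.22, 8.98 and 9.02 in Sle2 mice, against 8.81, 8.68 and 8.65 in B6 mice. The strains did not overlap, with a 1.29-fold difference (0.36, SE 0.106, interval 0.12 to 0.60, adjusted p = 0.15). Its second probe read 9.05, 8.85 and 8.82 in Sle2 mice and 8.56, 8.26 and 8.26 in B6 mice, a difference of 0.55 (SE 0.121, adjusted p = 0.0811), which was the smallest adjusted p among the 42 kept probes of members. With arrays scaled to equal medians, which moved the median of all genes to 0.14, Creld2 was at 0.51 and passed (adjusted p = 0.0478).

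Pdia3, the disulfide isomerase that works with calnexin and calreticulin on glycoproteins, had values of 11.24, 10.97 and 11.17 in Sle2 mice, against 10.90, 10.78 and 10.78 in B6 mice (difference 0.31, SE 0.107, interval 0.06 to 0.55, adjusted p = 0.202). Hsp90b1, the ER Hsp90 also called Grp94, was at 11.25, 11.02 and 10.97 in Sle2 mice and at 10.80, 10.74 and 10.86 in B6 mice (difference 0.28, SE 0.108, interval 0.04 to 0.53, adjusted p = 0.239). Dnajb9, an ER DnaJ co-chaperone that restrains Ire1, was at 8.16, 7.93 and 8.02 in Sle2 mice and at 7.90, 7.56 and 7.73 in B6 mice (difference 0.30, SE 0.118, interval 0.03 to 0.57, adjusted p = 0.245). None of these 3 genes overlapped between strains, though the second probe of Dnajb9 gave 0.16 (adjusted p = 0.594). Sdf2l1, which partners ER DnaJ proteins, was at 8.65, 8.20 and 8.16 in Sle2 mice and at 8.26, 7.66 and 7.87 in B6 mice. It had a wide spread in both strains, overlapped through B6 mouse 1, and differed by 0.41 (SE 0.182, interval -0.0017 to 0.83, adjusted p = 0.293).

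The other tested folding genes lay closer to 0. Pdia4 differed by 0.12 (interval -0.11 to 0.36) and Dnajc3, an inhibitor of Perk also called p58IPK, by 0.12 (interval -0.16 to 0.40). Calr, the glycoprotein chaperone calreticulin, differed by -0.10 (interval -0.52 to 0.32), with 8.92, 9.10 and 8.66 in Sle2 mice against 8.60, 9.28 and 9.11 in B6 mice. The spread of Calr within each strain exceeded the difference between them. Txndc5, a disulfide isomerase abundant in plasma cells, was at -0.16 (interval -0.46 to 0.13), with 10.81, 10.82 and 10.75 in Sle2 mice against 11.23, 10.81 and 10.83 in B6 mice. Only B6 mouse 1 stood apart, and without it the difference was -0.03. Hyou1, the ER Hsp110, was at -0.0050 (interval -0.24 to 0.23). Pdia6 was at -0.02 by its brighter probe and at 0.38 (adjusted p = 0.311) by its other one. With median scaling the signs of Calr, Txndc5, Hyou1 and Pdia6 turned positive, at 0.04, 0.01, 0.04 and 0.07, all below the shift that this scaling gave the median of all genes.

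Hspa5, the master ER chaperone BiP, could not be read: its 1 probe was not well above background on any array, with 4.69, 4.60 and 4.53 in Sle2 mice against 4.80, 4.89 and 4.73 in B6 mice. The same held for the 1 probe each of Canx, the membrane chaperone calnexin, and Manf, a stress-induced ER protein. No probe was annotated to Dnajb11.

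Some promoters of the folding and degradation genes hold the ER stress response element (ERSE), through which NF-Y and cleaved Atf6 act. The members were chosen as plasma cell secretory and ER stress genes, so its share among them is not independent of that choice. In RefSeq promoter windows (GRCm38.p6, 250 bases before to 50 after each annotated start), CCAAT followed after 9 bases of any kind by CCACG, on either strand, was found for 9 of 30 members that had a window. Among all 27025 genes with a window, 37 (0.137%) held it. The short form ERSE-II, ATTGG and CCACG with 1 base of any kind between them, was found for 2 further members, against 12 genes (0.0444%) in all. The matches did not overlap one another, and all 11 genes fall in the folding or degradation groups. They are shown because they are the letters these genes have in common, each written 5′ to 3′ on the strand that carries the motif, with its fixed letters in capitals.
Hspa5: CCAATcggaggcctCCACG
Hsp90b1, nearer match: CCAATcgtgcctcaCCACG
Hsp90b1, farther match: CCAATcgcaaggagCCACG
Calr: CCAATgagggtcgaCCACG
Canx: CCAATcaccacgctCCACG
Pdia6: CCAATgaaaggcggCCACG
Dnajc3: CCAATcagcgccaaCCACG
Creld2: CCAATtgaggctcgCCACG
Derl3: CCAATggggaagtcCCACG
Syvn1: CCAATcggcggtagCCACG
Dnajb11, ERSE-II: ATTGGcCCACG
Herpud1, ERSE-II: ATTGGgCCACG

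On the gene's own strand the matches lie upstream of Hspa5 at chr2:34772025-34772043 (+ strand), Hsp90b1 at chr10:86705638-86705656 (- strand, the farther match), Canx at chr11:50325800-50325818 (- strand), Pdia6 at chr12:17266491-17266509 (+ strand), Dnajc3 at chr14:118937827-118937845 (+ strand), Syvn1 at chr19:6046532-6046550 (+ strand) and Herpud1 at chr8:94386377-94386387 (+ strand). The match of Dnajb11, at chr16:22857852-22857862 (+ strand), lies just past the annotated start, within the transcript. On the strand opposite to the gene they lie at chr8:84847075-84847093 for Calr, chr15:88819520-88819538 for Creld2, chr10:75893242-75893260 for Derl3 and chr10:86705533-86705551 for the nearer match of Hsp90b1.

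The windows of 4 of these genes follow on the gene's strand, with motif letters in capitals (a motif on the other strand appears as its complement). Creld2 and Derl3 are shown as the members with the most separated strains or the largest difference, Hsp90b1 for its pair of matches, and Calr as a carrier that did not differ beyond its spread. They lie at chr15:88819396-88819695 (+ strand), chr10:75893148-75893447 (+ strand), chr10:86705395-86705694 (- strand) and chr8:84846882-84847181 (- strand).
Creld2: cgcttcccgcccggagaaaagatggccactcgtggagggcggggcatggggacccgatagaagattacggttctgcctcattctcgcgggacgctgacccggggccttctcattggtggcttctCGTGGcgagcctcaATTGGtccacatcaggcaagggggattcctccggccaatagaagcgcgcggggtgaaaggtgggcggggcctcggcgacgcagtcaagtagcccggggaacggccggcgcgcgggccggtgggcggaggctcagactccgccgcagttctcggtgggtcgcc
Derl3: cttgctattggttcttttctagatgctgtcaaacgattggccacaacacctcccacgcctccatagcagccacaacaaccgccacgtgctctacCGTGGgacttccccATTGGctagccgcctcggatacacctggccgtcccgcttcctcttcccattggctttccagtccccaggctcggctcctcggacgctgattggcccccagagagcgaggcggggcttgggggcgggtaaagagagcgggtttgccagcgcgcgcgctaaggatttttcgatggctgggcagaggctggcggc
Hsp90b1: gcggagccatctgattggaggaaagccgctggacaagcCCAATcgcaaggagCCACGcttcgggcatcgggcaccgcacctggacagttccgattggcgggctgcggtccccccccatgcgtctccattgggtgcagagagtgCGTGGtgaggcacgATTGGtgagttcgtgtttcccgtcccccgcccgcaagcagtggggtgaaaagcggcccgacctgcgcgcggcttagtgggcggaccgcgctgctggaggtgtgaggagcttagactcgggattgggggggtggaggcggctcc
Calr: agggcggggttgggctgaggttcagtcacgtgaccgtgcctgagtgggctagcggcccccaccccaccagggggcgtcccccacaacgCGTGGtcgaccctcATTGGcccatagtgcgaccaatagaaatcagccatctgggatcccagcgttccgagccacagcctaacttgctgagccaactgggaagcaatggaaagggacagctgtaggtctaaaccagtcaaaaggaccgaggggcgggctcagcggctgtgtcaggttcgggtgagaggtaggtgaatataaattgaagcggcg

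**Figure D3:**
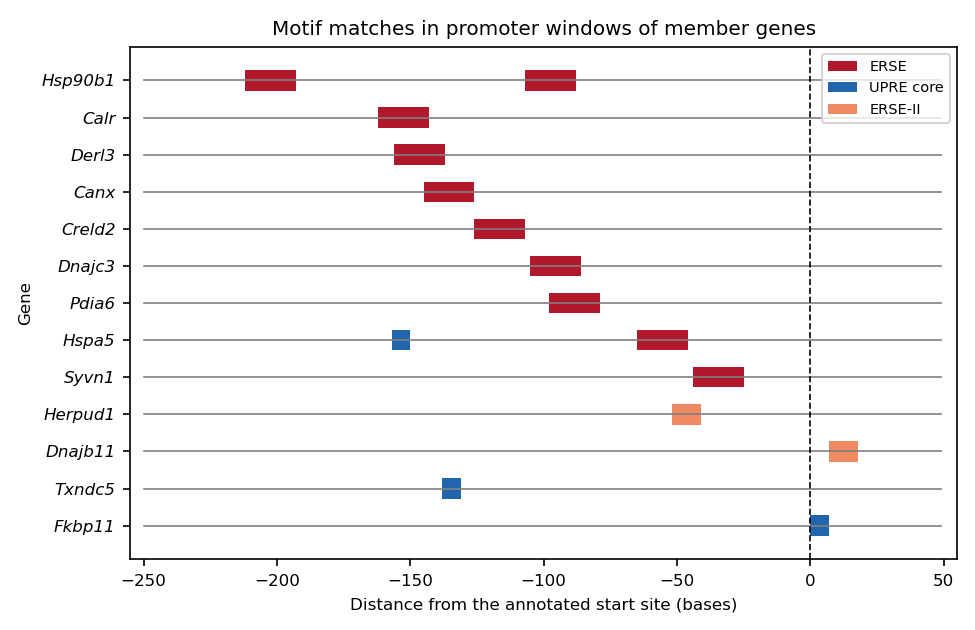
Position of each motif match in the promoter windows of member genes, in bases from the annotated start site (dashed line); red marks ERSE, orange ERSE-II and blue the UPRE core TGACGTG. The ERSE matches begin between -212 and -44 bases from the start.

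The motif was set beside the strain differences. The 8 tested members with ERSE or ERSE-II had a median difference of 0.12, with 6 higher and 2 lower means in Sle2. The 17 tested members with a window and no match also had a median of 0.12, with 12 higher means. The UPRE core TGACGTG, bound by Xbp1, was found for Hspa5, Fkbp11 and Txndc5 (2.22% of all genes with a window). The amino acid response form TGATGNAAT, bound by Atf4 with C/EBP partners, was found for 0 of the 30 (1.08% of all). Forms of this element with another last base were not searched, so the count covers this form only.

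All 6 genes of ER-associated degradation, which returns misfolded proteins to the cytosol for the proteasome, were tested, and all 6 had a higher mean in Sle2 (median 0.11, range 0.03 to 0.66), as did 54.2% of all tested genes. Edem1, the smallest, was below 0 without Sle2 mouse 1, B6 mouse 2 or B6 mouse 3. Derl3, a Derlin channel subunit expressed in secretory cells, had the largest difference of any member. Its values were 6.13, 6.21 and 5.34 in Sle2 mice, against 5.40, 5.23 and 5.07 in B6 mice. Sle2 mice 1 and 2 stood well above the rest, whereas Sle2 mouse 3 lay among the B6 mice. The difference was 1.58-fold (0.66, SE 0.219, interval 0.17 to 1.16, adjusted p = 0.19), and without Sle2 mouse 3 it was 0.93 and passed (adjusted p = 0.0413). Without background correction it was 0.41, and with the series matrix values 0.37. The B6 values of Derl3 lay near the detection limit, and a stricter filter (detection p under 0.01 on all arrays) removed it.

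Edem2, a mannosidase-like factor that trims misfolded glycoproteins, had values of 11.20, 11.08 and 11.10 in Sle2 mice, against 11.06, 10.72 and 10.58 in B6 mice. The strains just failed to overlap, B6 mouse 1 lying next to the Sle2 mice, with a difference of 0.34 (SE 0.133, interval 0.04 to 0.64, adjusted p = 0.246). Its 3 further probes gave 0.27, 0.13 and -0.02, so the probes differed. Herpud1, a scaffold of the degradation complex, was at 11.96, 11.99 and 11.92 in Sle2 mice and at 11.83, 11.89 and 11.79 in B6 mice. Its strains were separated by a narrow gap, with a difference of 0.12 (SE 0.0901, interval -0.09 to 0.32, adjusted p = 0.532) and 0.25 (adjusted p = 0.251) by its second probe, which did not overlap either.

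Syvn1, the ubiquitin ligase Hrd1, was at 12.60, 12.72 and 12.83 in Sle2 mice and at 12.77, 12.48 and 12.57 in B6 mice. The strains overlapped. Syvn1 differed by 0.11 (interval -0.15 to 0.36) and its partner Sel1l by 0.09 (interval -0.14 to 0.32). The 3 further probes of Sel1l gave -0.09, -0.07 and 0.22. The last was detected in all 3 Sle2 mice and in no B6 mouse. It was thus kept through Sle2 alone, which favours a higher Sle2 value, with a bound of 1.08-fold (adjusted p = 0.26). Edem1, a lectin that hands glycoproteins to degradation, differed by 0.03 (interval -0.25 to 0.32), with 7.61, 7.54 and 7.41 in Sle2 mice against 7.72, 7.38 and 7.35 in B6 mice, and it was again B6 mouse 1 that overlapped.

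The UPR sensors and factors showed no common direction. Their median was -0.0080 over 5 tested genes, with 2 higher and 3 lower means in Sle2. Atf4 had values of 10.93, 10.85 and 10.80 in Sle2 mice, against 10.68, 10.47 and 10.66 in B6 mice. The strains did not overlap, with a difference of 0.26 (SE 0.101, interval 0.03 to 0.49, adjusted p = 0.247), and its second probe gave 0.11 (adjusted p = 0.596). Atf6 was at 5.10, 5.16 and 5.19 in Sle2 mice and at 5.51, 5.14 and 5.54 in B6 mice, with B6 mouse 2 inside the Sle2 range. It differed by -0.25 (SE 0.124, interval -0.53 to 0.03, adjusted p = 0.345). Ddit3, the pro-apoptotic factor Chop downstream of Perk, was at 6.88, 7.15 and 6.82 in Sle2 mice and at 7.01, 7.04 and 6.90 in B6 mice. The strains overlapped, with a difference of -0.04 (interval -0.30 to 0.22) and 0.01 by its second probe. Ern1 was at 5.54, 5.05 and 5.62 in Sle2 mice and at 5.31, 5.31 and 5.14 in B6 mice, with Sle2 mouse 2 the lowest of the 6. It differed by 0.15 (interval -0.20 to 0.50) and Eif2ak3 by -0.0080 (interval -0.24 to 0.22). Splicing of Xbp1, phosphorylation of Perk and cleavage of Atf6 are not read by these probes.

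The members were also averaged per array. Each gene was centred on its mean over the 6 arrays and the tested genes of a group were averaged. The chaperone and folding mean was 0.15, 0.04 and 0.03 in Sle2 mice, against -0.02, -0.09 and -0.10 in B6 mice. No B6 mouse reached the lowest Sle2 mouse, and the means differed by 0.15 (0.07 ± 0.07 in Sle2 and -0.07 ± 0.04 in B6, SD, n = 3 each). Chaperones of the cytosol and mitochondria, outside the members, did not overlap between strains either, with means that differed by 0.12. The degradation mean was 0.17, 0.18 and -0.0089 in Sle2 mice, against 0.04, -0.15 and -0.23 in B6 mice. Here Sle2 mouse 3 fell below B6 mouse 1 (0.11 ± 0.11 in Sle2 and -0.11 ± 0.13 in B6, SD, n = 3 each). The degradation means differed by 0.23, and by 0.14 with the stricter filter that removed Derl3. The identity mean was 0.08, 0.01 and 0.03 in Sle2 mice, against 0.02, -0.09 and -0.05 in B6 mice, overlapping at B6 mouse 1 (0.04 ± 0.04 in Sle2 and -0.04 ± 0.05 in B6, SD, n = 3 each). The UPR sensor mean was 0.03, -0.03 and 0.04 in Sle2 mice and 0.07, -0.09 and -0.01 in B6 mice, with B6 mouse 1 the highest of the 6. Its means differed by 0.02, opposite in sign to the median of the same genes. Since the members were chosen with results known, no test is given for these means.

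**Figure D4:**
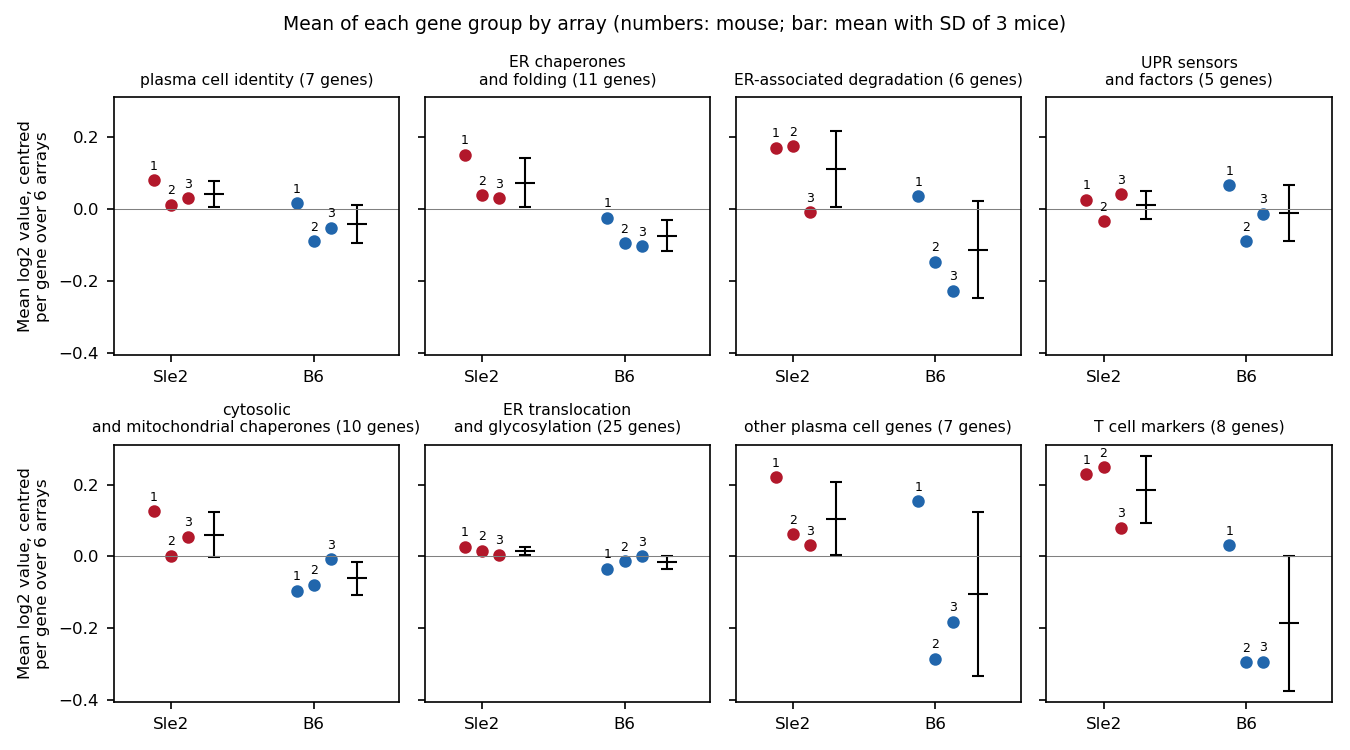
Mean log2 value per array (vertical axis, centred per gene over the 6 arrays) of the 4 member groups (upper row) and of 4 comparison lists (lower row); points are mice, and bars give the mean with the SD of 3 mice. The ER chaperone means of Sle2 mice (0.03 to 0.15) lie above those of B6 mice (-0.10 to -0.02), and B6 mouse 1 is the highest B6 mouse in all 4 member groups. In the lower row, only the other plasma cell genes overlap between strains.

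Across the 6 arrays the means of the identity, chaperone and degradation groups ran together, and the UPR sensor mean less so. Identity and chaperone means had Pearson's r of 0.93 and Spearman's rho of 0.77 over 6 arrays, and r was 0.90 without the arrays of Sle2 mouse 1 and B6 mouse 2, the farthest from the median. Chaperone and degradation means had r of 0.88 and rho of 0.89, and identity and degradation means r of 0.82 and rho of 0.54. The UPR sensor mean had r of 0.73 with the identity mean, 0.44 with the chaperone mean and 0.35 with the degradation mean (rho 0.71, 0.20 and 0.14). Between single genes, the median pairwise r was 0.66 within the degradation group, where 100% of 15 pairs were positive, and 0.37 without B6 mouse 3. It was -0.06 within the identity genes, 0.11 between identity genes and chaperones, and 0.16 between identity and degradation genes. Within the chaperones it was -0.02, but 0.29 with a stricter detection filter that removed 1 of the 11, 0.29 with the mean of all kept probes and 0.34 with median scaling. Over all tested genes the median pairwise r was 0.0055, with 50.4% positive. After the strain means were removed, the degradation group had a median r of 0.51, the chaperones 0.08 and the identity genes -0.23. Identity genes then had a median r of -0.01 with the chaperones and -0.13 with the degradation genes. All such values rest on the same 6 arrays and are descriptions. No r was computed between these group means and lists outside the members. The T cell marker means were 0.23, 0.25 and 0.08 in Sle2 mice, against 0.03, -0.30 and -0.29 in B6 mice. Like the chaperone and degradation means, they were highest in Sle2 mice 1 and 2 and lowest in B6 mice 2 and 3. Running together is thus not shown to be particular to the members.

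Each gene was then set beside the chaperones as a group. Against the mean of the other tested chaperones, Creld2 had r of 0.99, Pdia3 0.90, Hsp90b1 0.89, Dnajb9 0.88, Sdf2l1 0.85, Pdia4 0.73 and Dnajc3 0.52. Txndc5 (-0.31), Hyou1 (-0.34), Pdia6 (-0.55) and Calr (-0.56) had a negative r. With the strain means removed Txndc5 was at 0.36, and Hyou1 (-0.57), Pdia6 (-0.84) and Calr (-0.67) stayed below 0. ERSE carriers stood on both sides, with Creld2, Hsp90b1 and Dnajc3 among the 7 and Calr and Pdia6 among the 4. Of the other groups, Atf4 (0.90), Edem2 (0.89), Derl3 (0.82), Xbp1 (0.78) and Sdc1 (0.74) followed the chaperone mean, and Slamf7 (-0.63) and Atf6 (-0.58) had a negative r. After removal of the strain means Sdc1 kept r of 0.90 and Xbp1 0.77, while Herpud1 was at 0.05, Atf6 at 0.02, Slamf7 at -0.11 and Mzb1 at -0.43. The range over the 6 arrays was widest for Derl3 (1.15) and Sdf2l1 (0.99) and narrowest for Hyou1 (0.19) and Herpud1 (0.20).

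Other genes of the pathway also gave 0 calls by limma, where 1.04% of all tested genes were called. Of all tested genes, 54.2% had a higher Sle2 mean and 10.5% were higher at an unadjusted p under 0.05. Of 10 further plasma cell genes, 7 were tested, with 6 higher means in Sle2, a median of 0.20 and 1 higher at that p. That gene, Tent5c, a poly(A) polymerase of plasma cells, was at 7.30, 7.01 and 7.03 in Sle2 mice and at 7.17, 6.06 and 6.36 in B6 mice (difference 0.59, SE 0.249, adjusted p = 0.277). B6 mouse 1 lay within the Sle2 range, as for Sdc1, while its Xbp1 value lay just above the Sle2 range. Lman1, a cargo receptor for glycoproteins, was at 0.26 (adjusted p = 0.408), and Irf4, a factor needed for plasma cells, was at 0.05 (adjusted p = 0.833). Tnfrsf17, detected on all 6 arrays, was at 0.38.

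The mature B cell programme, which plasma cells silence, had 12 tested genes with a median of -0.03. At an unadjusted p under 0.05, 1 of them was higher and 2 lower, where 10.5% and 6.45% of all tested genes were. The smallest p were those of Cr2 (0.62, adjusted p = 0.0878) and Spib (-0.36, adjusted p = 0.14). Ighg1 was the 1 tested immunoglobulin constant region of 11 listed, at -0.47 (adjusted p = 0.185), with 5.06, 4.85 and 5.34 in Sle2 mice against 5.67, 5.33 and 5.65 in B6 mice. Sle2 mouse 3 and B6 mouse 2 were level and brought the strains into overlap.

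Further machinery of the secretory pathway was counted in the same way. ER translocation and glycosylation had 25 tested genes and a median of 0.08, with Stt3b, an oligosaccharyltransferase subunit, at 0.32 (adjusted p = 0.183) and Srpr, the signal recognition particle receptor, at -0.29 (adjusted p = 0.193). Further ER folding and degradation genes had a median of 0.03 over 17 tested, with Erlec1, an ER lectin, at 0.26 (adjusted p = 0.232) and Ero1b, an ER oxidase, at -0.21 (adjusted p = 0.294). ER to Golgi transport had a median of -0.05 over 14 tested, with Tmed10 at 0.27 (adjusted p = 0.313) and Sec31a at -0.19 (adjusted p = 0.409), both of vesicle transport. These 3 lists had 2, 1 and 0 genes higher and 1, 0 and 0 lower at an unadjusted p under 0.05, where 10.5% of all tested genes were higher and 6.45% lower. The array means of the translocation and glycosylation list were 0.03, 0.02 and 0.0044 in Sle2 mice, against -0.03, -0.01 and 0.0009 in B6 mice, so this list did not overlap between strains either, by a difference in means of 0.03.

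The integrated stress response, the programme that Atf4 drives, had a median of 0.02 over 13 tested genes. At an unadjusted p under 0.05, 2 were higher and 1 lower, where 10.5% and 6.45% of all tested genes were. Mthfd2, a mitochondrial folate enzyme, was at 0.39 (adjusted p = 0.169). Sesn2, a stress-induced regulator of mTORC1 that lies on chromosome 4, was at -0.49 (adjusted p = 0.153). Chaperones of the cytosol and mitochondria, which are not UPR targets as a class, had a median of 0.11 over 10 tested genes. They had 8 higher means and 1 gene higher at an unadjusted p under 0.05, against 54.2% and 10.5% of all tested genes. Their array means were 0.13, 0.0014 and 0.05 in Sle2 mice, against -0.10, -0.08 and -0.0085 in B6 mice. These means did not overlap between strains and differed by 0.12. Dnajb1, an Hsp70 co-chaperone of the cytosol, was at 11.24, 10.95 and 10.92 in Sle2 mice, against 10.64, 10.66 and 10.70 in B6 mice (difference 0.37, SE 0.112, adjusted p = 0.163), and its strains did not overlap. Hspa1a, the inducible Hsp70, was detected in all 3 Sle2 mice and in no B6 mouse. It was thus kept through Sle2 alone, which favours a higher Sle2 value. Its difference was 0.16 (interval -0.06 to 0.38, adjusted p = 0.43), with a bound of 1.06-fold.

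Markers of other cells gave 0 calls in the limma fit, where 1.04% of all tested genes were called. Several lists had medians away from 0 on the same arrays, and their part in the members' values was not tested. At an unadjusted p under 0.05, 4 of 8 T cell and 3 of 6 erythroid markers were higher in Sle2. So were 1 of 5 natural killer and 1 of 7 neutrophil markers. Lower were 2 of 6 platelet, 1 of 9 monocyte and macrophage, 1 of 7 plasmacytoid and 1 of 3 conventional dendritic cell markers. Among all tested genes, 10.5% were higher and 6.45% lower. Of 12 T cell markers 8 were tested, 7 with a higher Sle2 mean (median 0.39), led by Bcl11b (0.69) and Zap70 (0.50). Bcl11b was detected in all 3 Sle2 mice but in 1 B6 mouse, with B6 values (5.26, 4.95 and 4.85) near the detection limit. The array means of the T cell markers were 0.23, 0.25 and 0.08 in Sle2 mice, against 0.03, -0.30 and -0.29 in B6 mice. B6 mouse 1 was again the highest of its strain. Their summed normalized intensity was 1738 to 2012 in Sle2 mice, against 1706 to 1794 in B6 mice, and Cd4, Cd8a and Cd5 were detected on no array.

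Erythroid markers (6 of 9 tested, median 0.56) summed to 29110 to 39210 in Sle2 mice, against 22650 to 40280 in B6 mice. Sptb (0.71, adjusted p = 0.0707) and Slc4a1 (1.13, adjusted p = 0.109) had the smallest p of that list, and Epb42 was detected on no array. Neutrophil markers (7 of 9 tested, median 0.30) summed to 1630 to 1683 in Sle2 mice, against 738 to 2617 in B6 mice, led by Ltf (0.86) and Camp (0.77), with Cxcr2 detected on no array. Natural killer markers (5 of 8 tested, median 0.37) summed to 1401 to 1985 in Sle2 mice, against 1005 to 1681 in B6 mice, led by Prf1 (0.47) and Klre1 (0.52), with Ncr1 and Eomes detected on no array. The ranges of these 3 sums overlapped between strains.

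Platelet markers (6 of 7 tested, median -0.34) summed to 304 to 338 in Sle2 mice, against 333 to 652 in B6 mice, led by Clec1b (-0.53, adjusted p = 0.0747) and Vwf (-0.54), with Gp1bb detected on 1 array. Monocyte and macrophage markers (9 of 10 tested, median 0.05) summed to 9644 to 14710 in Sle2 mice, against 11560 to 14360 in B6 mice, with Spic at -0.41 and Lyz2 at 0.44. Plasmacytoid dendritic cells are themselves secretory cells. Their markers (7 of 8 tested, median 0.15) summed to 11500 to 12420 in Sle2 mice, against 13490 to 15400 in B6 mice, a sum that includes Ly6d (-0.31), which B cells express too. Ccr9 was detected on no array, and Siglech was at 8.13, 7.24 and 8.10 in Sle2 mice and at 7.57, 6.88 and 7.54 in B6 mice. Conventional dendritic cell markers (3 of 7 tested, median 0.14) summed to 144 to 236 in Sle2 mice, against 131 to 203 in B6 mice, with Xcr1 at -0.33, Clec9a at 0.40, and Itgax and Cd209a detected on no array. The B cell markers summed to 49040 to 51420 in Sle2 mice, against 51520 to 54650 in B6 mice, and Cr2 and Cd22 (0.17) had the smallest p among them. In the mean of centred log2 values, which weights the 8 markers equally, the order was turned: 0.05 to 0.06 in Sle2 mice, against -0.11 to 0.02 in B6 mice.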

How the data were processed

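Biotin-labelled RNA of each mouse was read on Illumina mouse BeadChips, per the labels. The deposited intensities came from GenomeStudio, per the submitters' processing notes; from the values they are linear and not normalized. Beside each deposited intensity stands its detection p-value, per the file headers. A deposited series matrix holds linear intensities that share 1 distribution over arrays, and was used as an alternative. Symbols came from the platform annotation, updated by gene identifier through RefSeq (GRCm38.p6): 34885 probes had 1 symbol, 18 several and 10378 none. Values were processed with neqc (normexp with an offset of 16, quantile, log2; limma 3.58.1, R 4.3.3). Probes with detection p under 0.05 on at least 3 arrays were kept (17861), and a gene was read by its brightest kept probe. Strains were compared with lmFit and eBayes over all kept probes, two-sided, with Benjamini-Hochberg adjustment. Where no array of 1 strain detected a probe, the fold is a lower bound against the dimmest detected signal per array. The fit was tested on simulated data. The number of arrays limits the precision. Values per array are given for called members, the 4 smallest p and the brightest member per role, and Prdm1, Xbp1, Sdc1, Jchain, Hspa5, Atf4, Ddit3 and Herpud1; of each further list the 2 genes with the smallest p are named. Members, lists and this rule were chosen with earlier results of these data known. Alternatives covered background correction, scaling, filters, prior, weights, probe choice, the replicate block and single mice left out. Protein sequences were not used here.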

Additional observations from a re-analysis of the deposited data

How the results depend on the processing

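The fit with the mouse number as a replicate block called 72 genes and 0 members. Numbers are shared by label only: same-numbered mice correlated at 0.267, 0.17 and 0.0885 in their deviations from the strain means, and each of the 6 arrays correlated best with its own number, a hint from the data and not from the design. The count of called members was 0 under all settings run except median scaling (1, Creld2) and leaving out Sle2 mouse 3 (1, Derl3), so leaving out single mice gave 0 to 1. All genes called were 97, against 173 without background correction, 245 with median scaling (219 higher and 26 lower, against 61 and 36), 187 with series matrix values, 56 with no filter, 285 with a trended robust prior, 51 with Xist signal as a covariate, which was chosen after seeing the data, and 29 to 142 with 1 mouse left out. Median scaling moved the median of all genes from 0.02 to 0.14 and with it the group medians: identity 0.21, chaperones 0.29, degradation 0.25 and UPR sensors 0.0867, and the group mean differences 0.19, 0.29, 0.35 and 0.12. The identity median was 0.0960 without background correction, 0.0870 with series matrix values, 0.11 with no filter and 0.0373 to 0.17 with 1 mouse left out. The chaperone median was 0.20 with the strict filter (detection p under 0.01 on all arrays), 0.18 with the mean of all kept probes and 0.0496 to 0.23 with 1 mouse left out. Median pairwise r within the chaperones was 0.34 with median scaling, 0.29 with the strict filter and 0.29 with the mean of probes. Over all members it was 0.41 with median scaling, 0.0938 with no filter, 0.27 with the strict filter, 0.21 with the mean of probes and 0.15 to 0.22 with 1 mouse left out, against 0.16. Signs of genes near 0 turned: with median scaling Fkbp11 (0.0382), Hyou1 (0.0367), Calr (0.0433), Pdia6 (0.0692), Txndc5 (0.0149), Ddit3 (0.0538) and Eif2ak3 (0.0867), with the mean of probes Pdia6 (0.18), and with array weights Eif2ak3 (0.0159). Leaving out single mice gave Ell2 -0.0329 to 0.29, Fkbp11 -0.23 to 0.0373, Hyou1 -0.0556 to 0.0479, Calr -0.30 to 0.0383, Pdia6 -0.12 to 0.0748, Edem1 -0.0304 to 0.15, Ddit3 -0.14 to 0.0279 and Eif2ak3 -0.0651 to 0.0518. Beyond the shift that median scaling gives all genes, the cause was not tested. Creld2, Pdia3, Hsp90b1, Dnajb9, Sdf2l1, Edem2, Derl3, Atf4 and Xbp1 kept a positive difference under every setting that tested them. So did Sdc1, Mzb1, Sec11c, Pdia4, Dnajc3, Sel1l, Syvn1, Herpud1 and Ern1. Slamf7 (-0.26 to -0.083) and Atf6 (-0.38 to -0.12) kept a negative one. Of these, the strict filter removed Derl3, Sdc1, Ern1 and Atf6. The planned description of protein C termini was not run. Genes whose probes were at background, Prdm1, Jchain, Hspa5, Canx and Manf among them, have no reading, and 3 mice per strain limit the precision of all others.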
